A study of Mus musculus with 2 samples.

Results

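The 44 genes described here are the secreted Wnt ligands (18 genes), the Frizzled receptors (10), the co-receptors Lrp5 and Lrp6, the secreted antagonists of the Sfrp, Dkk and Wif families with Frzb (10), and 4 intracellular genes, Axin1, Axin2, Lef1 and Tcf7. They were chosen by name among 22238 protein-coding genes, and their cytosines were taken from 2 kb upstream of the gene start to the gene end. Of the 826937 cytosines covered in both libraries, 3298 lay in these genes, 595 of them upstream of a gene start and 2703 in gene bodies. No position belonged to more than 1 of the 44 genes.

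The data are reduced representation bisulfite sequencing (RRBS) of mouse embryonic fibroblasts (MEFs), in which DNA is cut with MspI at CCGG and a cytosine still read as cytosine after bisulfite treatment counts as methylated. The wt MEFs carried wild-type Esr2, the gene of oestrogen receptor β (ERβ), and the βerko MEFs were Esr2 -/-. Both came from C57BL/6 mice and were grown in the same medium. Each genotype had 1 library made from 3 pooled batches of DNA, so that every value compares 2 libraries and a difference between genotypes cannot be told apart from a difference between these cultures. The age of the embryos and the number of animals are not given in the sources used here. Coverage is known only at differentially methylated positions (DMPs, defined with their counts), so that at other positions a value of 0 or 100 % may rest on few reads. All differences are βerko minus wt in percentage points.

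Methylation cannot show whether a gene is expressed, and the identity of the cells could be checked only in part. Twist1, a transcription factor of fibroblasts, had a mean of 0.701 % in wt versus 0.201 % in βerko MEFs over 49 positions of its body. Other bodies of listed fibroblast genes with at least 5 positions were mostly more methylated. Pdgfrb had 78.7 % in wt and 75.7 % in βerko MEFs over 34 positions, and Col1a1 72.1 and 62.6 % over 29. Vim had 28.0 and 27.2 % over 20 positions, and Prrx1 7.28 and 9.67 % over 21. Col1a2, a collagen gene of fibroblasts, had an upstream mean of 93.6 % in wt versus 48.3 % in βerko MEFs over 5 positions. Of 7 fibroblast genes listed, Col1a2, Twist1 and Prrx1 had at least 5 upstream positions, and differed there by -45.3, -16.7 and -29.5 points. None of 5 listed genes of pluripotent cells could be scored upstream, but the bodies of Pou5f1 (84.6 % in wt versus 60.3 % in βerko MEFs, 13 positions) and Dppa3 (67.4 % versus 43.0 %, 15 positions) were lower in βerko MEFs. The part of such differences between the cultures in the values of the Wnt genes was not tested. Esr2 itself had 2 DMPs, at 100 % (27 reads) and 100 % (10 reads) in wt but 2.33 % (43 reads) and 19.4 % (31 reads) in βerko MEFs. Whether Esr2 was disrupted cannot be read from these values.

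Wnt proteins are lipid-modified ligands that bind a Frizzled receptor together with Lrp5 or Lrp6. In the canonical branch this stops the Axin scaffold from marking β-catenin for degradation, and β-catenin then acts with Lef1 or Tcf7 on target genes, of which Axin2 is a common reporter. Sfrp proteins, Frzb and Wif1 bind Wnt ligands outside the cell, whereas Dkk1 and its relatives act at the co-receptors. Many of these genes have CpG islands at their start, and in fibroblasts the pathway takes part in growth, matrix production and the choice against adipocyte fate.

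The sequences that carry the differences are shown first, in the direction of transcription and with every CpG that differed by 50 points or more in capitals. They are reference sequence of NCBIM37 (mm9). The longest runs outside untranslated regions whose sequence is shown lay in coding exons of Fzd9 (chr5:135726299-135726594, minus strand) and Fzd1 (chr5:4756422-4756509, minus strand) and in an intron of Wnt5a (chr14:29322509-29322566, plus strand). All capitals in these were lower in βerko MEFs.
Fzd9 coding exon: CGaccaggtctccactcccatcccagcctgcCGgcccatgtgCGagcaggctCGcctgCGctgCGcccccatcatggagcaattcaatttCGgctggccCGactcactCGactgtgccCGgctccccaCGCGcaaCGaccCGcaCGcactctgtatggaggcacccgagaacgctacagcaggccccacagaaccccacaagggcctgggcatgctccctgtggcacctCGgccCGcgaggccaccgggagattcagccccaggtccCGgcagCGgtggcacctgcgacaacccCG
Fzd1 coding exon: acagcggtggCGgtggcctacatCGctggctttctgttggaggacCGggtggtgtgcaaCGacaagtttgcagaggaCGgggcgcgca
Wnt5a intron: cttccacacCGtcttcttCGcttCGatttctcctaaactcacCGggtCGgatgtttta

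Upstream of gene starts, the stretches shown are those of Wnt3 (chr11:103634848-103634979, plus strand), Wnt2 (chr6:17981428-17981551, minus strand) and Sfrp2 (chr3:83568278-83568320, plus strand), together with the position of Wnt10b that had the most reads of all Wnt gene DMPs (chr15:98608735-98608775, minus strand). Their capitals were again lower in βerko MEFs.
Wnt3 upstream: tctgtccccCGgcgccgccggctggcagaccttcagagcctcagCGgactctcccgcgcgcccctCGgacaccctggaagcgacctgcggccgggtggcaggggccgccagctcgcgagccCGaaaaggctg
Wnt2 upstream: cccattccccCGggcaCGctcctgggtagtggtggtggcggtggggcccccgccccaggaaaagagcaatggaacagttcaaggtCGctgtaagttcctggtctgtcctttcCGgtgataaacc
Sfrp2 upstream: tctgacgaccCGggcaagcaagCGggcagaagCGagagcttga
Wnt10b upstream: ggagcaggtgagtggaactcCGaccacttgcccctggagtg

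For the opposite direction, the 2 runs of higher methylation, both in introns of Wnt3a (chr11:59097844-59097869 and chr11:59073457-59073509, minus strand), are shown with 2 single positions in introns of Wnt4, a hypomethylated one (chr4:136839350-136839390, plus strand) and a hypermethylated one (chr4:136847017-136847057, plus strand). Capitals mark lower methylation in the first Wnt4 sequence and higher methylation in the other three.
Wnt4 intron with lower methylation: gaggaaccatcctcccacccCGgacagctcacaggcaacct
Wnt4 intron with higher methylation: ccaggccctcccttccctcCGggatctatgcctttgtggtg
Wnt3a intron near the gene start: acatggccgcCGgCGCGggagcctcc
Wnt3a intron far from the gene start: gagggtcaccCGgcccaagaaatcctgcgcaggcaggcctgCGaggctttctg

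The Fzd9 stretch of 296 bases held 25 CpGs and 4 CCGG sites, with 68.9 % G and C. Of its 23 covered CpGs, 20 are in capitals. In the Wnt3 stretch of 132 bases, 13 of 16 CpGs were covered and 4 are in capitals, so that changed and less changed CpGs alternated within a few bases. The Wnt5a stretch was poorer in G and C, with 48.3 % in 58 bases, and all 5 of its CpGs are in capitals. The Sfrp2 stretch had 3 covered CpGs among 4, and each of the 3 differed.

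Over all positions of the 44 genes, mean methylation was 32.6 % in wt versus 26.1 % in βerko MEFs, compared with 40.7 % and 38.8 % over all covered positions. Most positions differed little, since 79.3 % were within 20 points, against 82.8 % of all covered positions. A difference of at least 50 points toward lower methylation was found at 193 positions of the Wnt genes, or 5.85 %, beside 2.92 % of all covered positions. In the other direction there were 34 positions, or 1.03 %, beside 1.47 % of all. Lower positions were thus more frequent in the Wnt genes than among all covered positions, and higher positions were not. Neighbouring CpGs share reads, and these shares are descriptions without a test.

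Means were taken for windows with at least 5 covered positions, and a window was called when its mean differed by 20 points or more. Upstream of the gene start, 26 of the 44 genes could be scored and 5 were called lower, namely Sfrp2, Wnt3, Wnt2, Wnt10b and Fzd10. Those 5 are 19.2 % of the scored genes, beside 4.93 % of 7064 scored protein-coding genes. Since a window with little methylation in wt MEFs cannot be called lower, the comparison was also made among windows with at least 20 % in wt, where 5 of 12 Wnt genes were called beside 22.5 % of all genes. No Wnt gene was called higher upstream, where 0.481 % of all genes were. The median upstream difference was -1.49 points over the 26 genes and -0.184 points over all scored genes.

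In gene bodies, 40 genes could be scored and 5 were called lower, Fzd8, Fzd9, Fzd10, Sfrp2 and Sfrp5. The background was 3.14 % of 14543 gene bodies, or 4.82 % of those with at least 20 % methylation in wt MEFs, a level that 33 of the 40 Wnt gene bodies reached. No Wnt gene body was called higher, beside 0.639 % of all. Fzd10 and Sfrp2 were called in both windows. The 5 upstream windows and 5 bodies thus belonged to 8 genes, of which 3 encode ligands, 3 receptors and 2 antagonists, while neither co-receptor and no intracellular gene was called by its mean. With the median of each library in place of its mean, the bodies of Tcf7, an intracellular gene, and of Wnt4 were called lower. The median of the differences at single positions was nevertheless 0 points in both bodies.

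**Figure D1:**
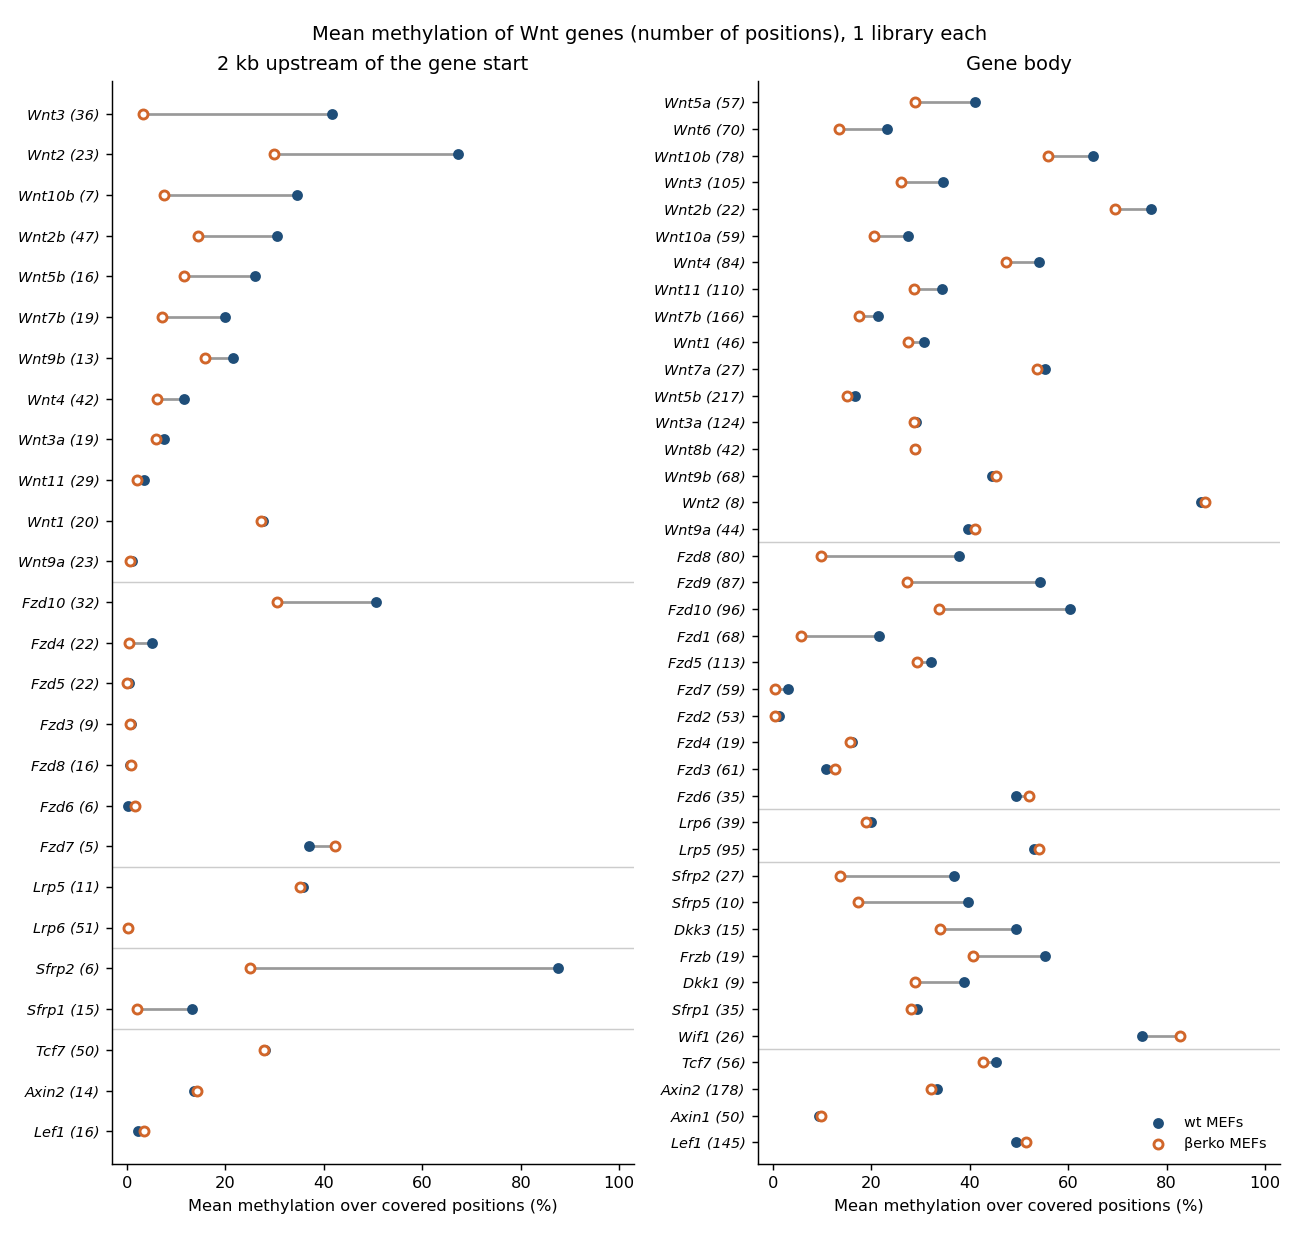
Mean methylation (horizontal axis, %) of each Wnt gene with at least 5 covered positions, in the 2 kb upstream of the gene start (left, 26 genes) and in the gene body (right, 40 genes), for the wt library (filled points) and the βerko library (open points); numbers in brackets are positions, and lines separate ligands, Frizzled receptors, co-receptors, secreted antagonists and intracellular genes. Wide gaps toward lower methylation in βerko MEFs stand at Sfrp2, Wnt3 and Wnt2 upstream and at Fzd8, Fzd9 and Fzd10 in the body, while most genes differ by less than 20 points.

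Among the ligands, all 12 scored upstream windows had a lower mean in βerko than in wt MEFs, with a median difference of -9.24 points. Of all 7064 scored protein-coding genes, 4324 also had a lower upstream mean. Of the 12 ligands, Wnt9a and Wnt1 differed least, by -0.510 and -0.54 points. Wnt3, which is needed for gastrulation in the mouse embryo, had 36 upstream positions with a mean of 41.7 % ± 28.7 (SD over positions) in wt versus 3.34 % ± 4.89 in βerko MEFs. Every one of these positions was lower in βerko MEFs, by between 3.39 and 100 points, and 13 of them by at least 50. Methylation was thus uneven in wt MEFs, whereas all values in βerko MEFs lay between 0 and 23.5 %.

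Wnt3 had 4 runs, defined as at least 3 positions with gaps of at most 100 bp that each differed by 50 points or more in the same direction. They lay 764 to 732, 606 to 495 and 80 to 27 bp upstream of the gene start and 225 to 243 bp downstream of it in an intron. In the first, mean methylation was 93.9 % in wt versus 7.84 % in βerko MEFs. The second included 10 further covered positions that differed by less than 50 points, and the mean over all 14 positions of its span was 39.8 % in wt versus 3.51 % in βerko MEFs. Beyond the last run, 88 of 96 positions of the Wnt3 body were within 20 points, and the mean there was 31.4 % in wt versus 27.0 % in βerko MEFs. The difference at Wnt3 was therefore mostly around the gene start. Exceptions in introns lay 21408, 21421 and 36441 bp from it. They had 91.7, 83.3 and 97.7 % in wt versus 0, 0 and 4.29 % in βerko MEFs. Many other positions beyond the last run were close to 0 % in both libraries and had little room to fall.

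Wnt2, a ligand of lung and heart mesenchyme, had 23 upstream positions with a mean of 67.3 % ± 32.9 in wt versus 29.9 % ± 28.7 in βerko MEFs. Its 8 positions in the body did not follow, with 86.9 % and 87.8 %. In the sequence shown, the 4 CpGs in capitals had 89.5 to 96.2 % methylation in wt versus 19.1 to 31.0 % in βerko MEFs, but the CpG between them, 928 bp upstream, remained at 86.5 % in βerko after 100 % in wt MEFs. A further run of 3 positions lay 1282 to 1252 bp upstream. At 142 bp upstream the value was 100 % (21 reads) in wt but 7.14 % (56 reads) in βerko MEFs, and the 8 positions nearer to the gene start had 3.45 to 40.9 % in wt but only 0 to 10.8 % in βerko MEFs.

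Wnt10b, a ligand that holds back the formation of adipocytes, had only 7 upstream positions, with a mean of 34.5 % ± 28.4 in wt versus 7.44 % ± 4.13 in βerko MEFs. The value rested in part on the position 174 bp upstream (chromosome 15, 98608755), where 86 of 94 reads were methylated in wt (91.5 %, exact 95 % interval 83.9 to 96.3 %) versus 19 of 128 in βerko MEFs (14.8 %, 9.18 to 22.2 %). The other 6 positions had 3.45 to 41.9 % in wt versus 1.96 to 8.82 % in βerko MEFs, and 1 of them was higher in βerko by 5.37 points. With the first 500 bp of the gene included, the Wnt10b difference was -15.9 points and missed the call. Wnt1, the neighbour of Wnt10b at a distance of 11706 bp, had upstream means of 27.7 % and 27.2 %.

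The next upstream windows of ligands missed the call. Wnt2b had 30.6 % in wt versus 14.5 % in βerko MEFs over 47 positions, and Wnt5b had 26.0 % and 11.5 % over 16 positions. Wnt7b had 19.9 % and 7.04 % over 19 positions, all of them within the gene model AU022754. Wnt2b also had a run of 3 positions across its gene start, although 7 of the 10 covered positions in that span differed by less than 50 points. At Wnt9a, Wnt11, Wnt3a and Wnt4, the upstream mean was below 20 % in both libraries, with Wnt9a lowest at 1.02 % and 0.508 %. The Wnt9a body had 39.6 % and 41.1 % over 44 positions. Wnt9b had 21.5 % and 15.9 %.

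The bodies of 17 ligands could be scored, and none was called by its mean. Wnt5a, a ligand that mostly signals without β-catenin, had the largest body difference among them, with 41.1 % in wt versus 29.0 % in βerko MEFs over 57 positions. It came mainly from the intron stretch shown above, 4583 to 4620 bp from the gene start, where all 6 covered positions had 90.6 to 100 % methylation in wt versus 6.45 to 19.7 % in βerko MEFs. Outside this stretch, 47 of 55 Wnt5a positions were within 20 points, with means of 35.2 % and 30.9 %. The stretch also lies within the gene model Gm2670.

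Wnt4, a ligand of kidney and female reproductive tract development, held differences in both directions. Its runs of 3 and 5 positions in the intron 347 to 598 bp from the gene start had means of 88.1 % and 66.2 % in wt and of 2.78 % and 3.21 % in βerko MEFs. The most deeply read of its hypomethylated positions was 5966 bp from the gene start, with 41 of 42 reads methylated in wt (97.6 %, 87.4 to 99.9 %) and 7 of 111 in βerko MEFs (6.31 %, 2.57 to 12.6 %). At 13633 bp the order was opposite, with 3 of 46 reads in wt (6.52 %, 1.37 to 17.9 %) versus 68 of 69 in βerko MEFs (98.6 %, 92.2 to 100 %). In the Wnt4 body, 10 positions were lower and 3 higher by at least 50 points, and the mean over its 84 positions moved from 54.1 to 47.3 %. Most Wnt4 positions differed little, since 95 of the 114 outside the spans of the runs, upstream ones included, were within 20 points.

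Wnt3a, the ligand most used to stimulate β-catenin signalling, was the only Wnt gene with runs of higher methylation. In the stretch 6395 to 6400 bp from the gene start, the 3 positions had 0, 18.2 and 0 % methylation in wt versus 96.2, 80.8 and 80.8 % in βerko MEFs, with 11 to 12 reads in wt versus 26 in βerko MEFs. In the other, 30755 to 30787 bp from the gene start, the 3 positions with a difference of 50 points or more went from a mean of 41.3 % in wt to 93.5 % in βerko MEFs, and a CpG between them went from 81.6 to 93.2 %. The latter run therefore started from intermediate methylation. Over the whole body of Wnt3a, 10 positions were higher and 6 lower by at least 50 points, and the mean over 124 positions was 29.1 % in wt versus 28.6 % in βerko MEFs.

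Neighbouring ligand genes did not share a pattern throughout. Wnt9b lies 24328 bp from Wnt3, and had 4 positions lower and 5 higher by at least 50 points, where Wnt3 had 21 lower and none higher. Wnt9a lies 16175 bp from Wnt3a and had no such position in either direction, and neither had Wnt6 and Wnt10a, which are 6196 bp apart. For Wnt6 and Wnt10a the means over all positions were nevertheless lower in βerko MEFs, with 23.4 and 14.0 % at Wnt6 and 27.4 and 20.5 % at Wnt10a.

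The Frizzled receptors, many of which have their coding sequence in a single exon, showed the largest differences in gene bodies. Fzd9 had no covered position upstream. Its 87 body positions had a mean of 54.4 % ± 37.8 in wt versus 27.2 % ± 38.5 in βerko MEFs. Along the gene, the first 23 positions, up to 179 bp from the gene start, had 8.66 % in wt versus 0.564 % in βerko MEFs, and the next 18 positions, 261 to 346 bp, had 29.1 % and 9.25 %. The 25 positions from 507 to 800 bp, the stretch shown above, had 81.6 % ± 18.7 in wt versus 12.0 % ± 19.0 in βerko MEFs. The 2 positions at 951 and 979 bp had 100 % in wt versus a mean of 46.15 % in βerko MEFs. From 1461 bp to 1891 bp, 19 positions had 93.0 % ± 6.39 in wt versus 94.6 % ± 4.92 in βerko MEFs, so that this last covered part hardly differed.

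Within the Fzd9 stretch, 22 of 25 positions were lower by at least 50 points, by 51.25 to 97.5 points. The 3 others stand near its end, where 1 CpG went from 100 to 51.6 %, 1 was low in both libraries with 9.09 and 3.23 %, and 1 had 80 and 87.5 %. In the deposited annotation this stretch is also assigned to Hip1, whereas the gene models used here placed no other gene there.

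Fzd8, a receptor with its coding sequence in a single exon, had the longest run, with 24 positions 1781 to 2072 bp from the gene start in the coding exon. These positions had 76.5 to 100 % methylation in wt versus 0 to 32.8 % in βerko MEFs, with means of 91.9 and 14.3 %. Another 4 covered positions of the span were not part of the run. Toward the gene start, 63 of 64 positions were within 20 points and the means were 2.83 % and 1.37 %. The body mean was 37.7 % in wt versus 9.85 % in βerko MEFs over 80 positions. This difference came mainly from positions 1781 to 2200 bp from the gene start. No position farther into the Fzd8 body, which has 3346 bp, was covered. The upstream mean of 16 positions was 0.68 % and 0.831 %. With medians over positions in place of means, the body difference of Fzd8 was -7.41 points and missed the call.

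Fzd1 followed the same order of a start with little methylation and a changed part farther into the gene. Its runs of 8 and 4 positions in the coding exon, 1717 to 1784 and 1913 to 1940 bp from the gene start, had means of 74.2 and 70.6 % in wt and of 11.3 and 3.52 % in βerko MEFs. The 52 positions before the first run had 3.26 % and 1.69 %. The body mean, 21.7 % in wt versus 5.74 % in βerko MEFs over 68 positions, missed the call with a difference of -15.9 points. At 3 CpGs of the Fzd1 stretch shown above, both strands were covered, and both were lower by at least 50 points.

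Fzd10 differed more evenly. Its body had 60.3 % ± 28.5 in wt versus 33.7 % ± 22.1 in βerko MEFs over 96 positions, and its upstream window had 50.6 % ± 26.1 and 30.5 % ± 25.8 over 32 positions. Its 3 runs, of 8, 3 and 3 positions, held 34 covered positions in their spans, and the 94 positions outside still had 53.2 % in wt versus 33.3 % in βerko MEFs. Of the upstream positions, 29 lie within the gene model 5930412G12Rik, so that the upstream call cannot be assigned to Fzd10 alone.

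The other Frizzled genes differed little. Fzd7 had the largest upstream gain of the 26 scored genes, from 36.9 % in wt to 42.2 % in βerko MEFs over 5 positions, but 1 position, 1386 bp upstream, carried it with 40 and 100 %, and 2 of the others were lower. By the median of each library over these positions, Fzd7 upstream was called lower, at -22.2 points. The median of the differences at single positions was 0 points. Fzd6 had the largest gain in a Frizzled body, from 49.4 to 52.1 %, and Fzd3 followed with 10.8 and 12.5 %. Fzd2 had 1.24 % and 0.366 % over 53 body positions. Fzd5 and Fzd4 had bodies of 32.1 and 29.3 % and of 16.0 and 15.7 %, and the upstream windows of Fzd3, Fzd4, Fzd5 and Fzd6 were below 20 % in both libraries. All 22 upstream positions of Fzd4 lie within the gene model Tmem135. Upstream of Fzd6, the mean of 6 positions was 0.287 % in wt versus 1.68 % in βerko MEFs.

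**Figure D2:**
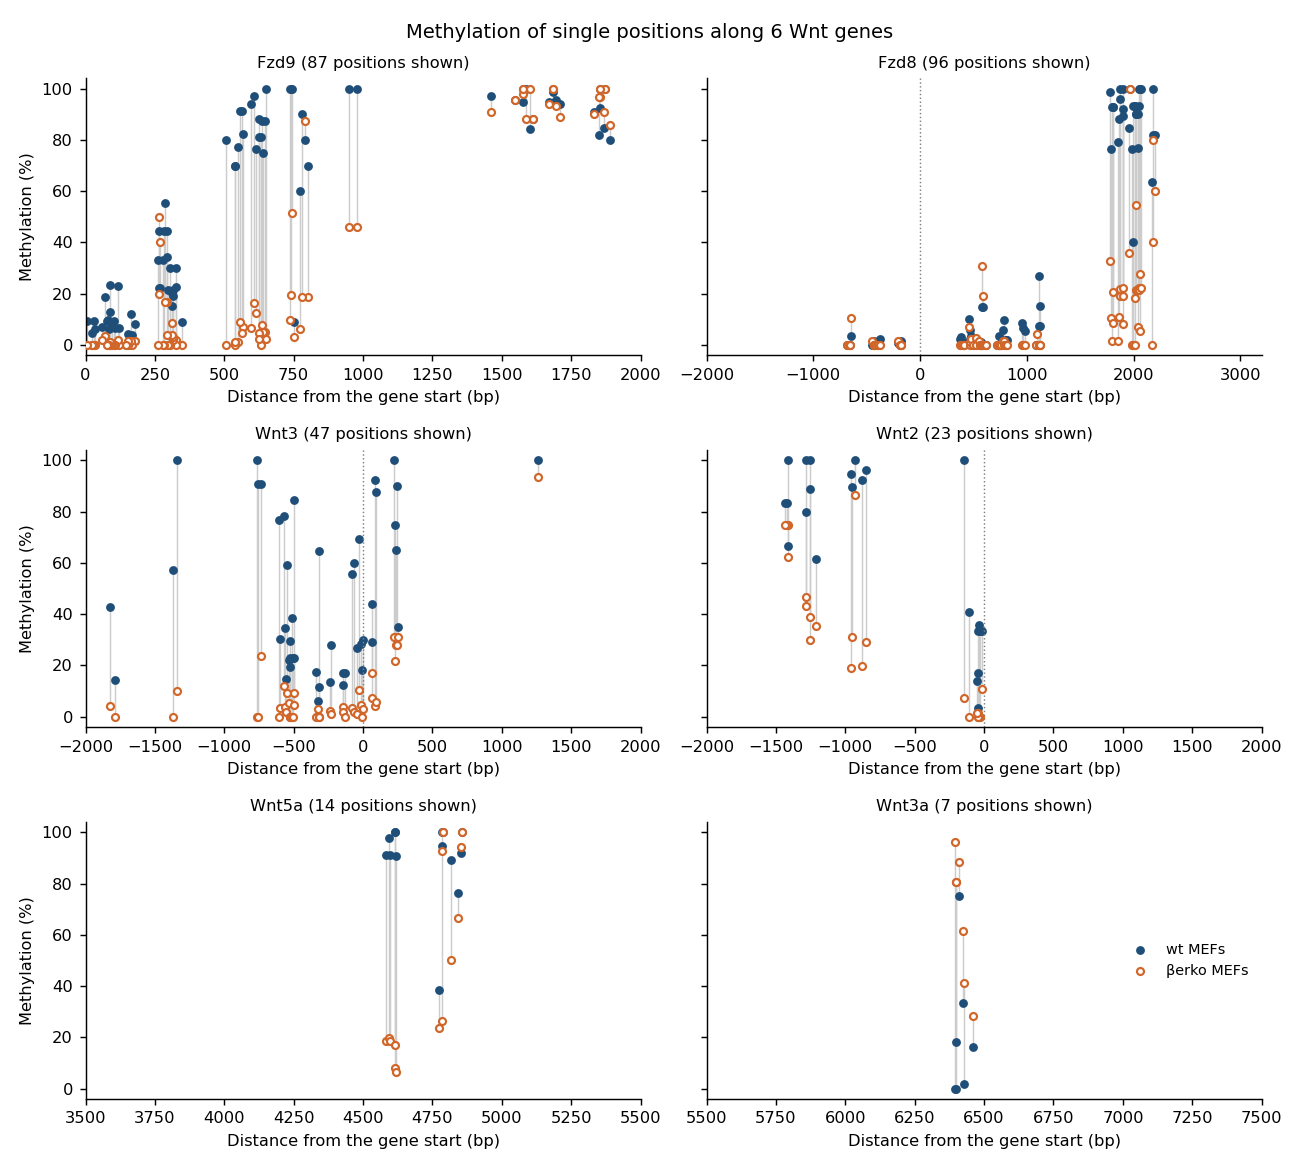
Methylation (vertical axis, %) of single cytosines by distance from the gene start (horizontal axis, bp; dotted line at the start where it lies inside the panel) along parts of Fzd9, Fzd8, Wnt3, Wnt2, Wnt5a and Wnt3a, for the wt library (filled points) and the βerko library (open points), joined by a line for each position. Fzd9 and Fzd8 differ in a stretch that starts 507 and 1781 bp from the gene start, Wnt3 and Wnt2 differ upstream, Wnt5a in a short intron stretch, and Wnt3a in the opposite direction.

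The co-receptors that Wnt ligands and Dkk proteins bind differed hardly at all. Lrp5 had 35.8 % in wt versus 35.2 % in βerko MEFs over 11 upstream positions and 53.0 and 54.1 % over 95 body positions. Lrp6 had 0.136 and 0.182 % over 51 upstream positions and 20.0 and 18.8 % over 39 body positions. Neither had a DMP, a run or any position that differed by 50 points.

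Of the secreted antagonists, Sfrp2 had the largest upstream difference of the 26 scored genes. Its 6 positions had a mean of 87.6 % ± 9.65 in wt versus 24.9 % ± 26.7 in βerko MEFs. Methylation in the stretch shown above went from 100, 100 and 80 % in wt to 5.26, 21.1 and 27.8 % in βerko MEFs, at 1955, 1943 and 1933 bp upstream. At 488, 338 and 318 bp upstream it was 81.8 % in wt at each position, and 20.4, 75 and 0 % in βerko MEFs. Thus 1 of the 6 positions hardly differed. The value at 318 bp rests on 9 of 11 reads in wt versus 0 of 4 in βerko MEFs. It was deposited with the DMPs but has too few reads to count as a DMP here. Only 6 of 79 CpGs of this window were covered. In the Sfrp2 body, 27 positions had 36.9 % ± 35.2 in wt versus 13.7 % ± 20.7 in βerko MEFs, and a run of 4 positions in a coding exon, 568 to 601 bp from the gene start, had 92.1 and 24.6 %. With medians the body difference of Sfrp2 was -12.0 points and missed the call, and with the first 500 bp of the gene added the upstream difference was -25.9 points.

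Dkk3, a Dickkopf family member that unlike Dkk1 is not known as a co-receptor ligand, had too few upstream positions for a mean to be called. These 4 positions had 68.8 to 96.9 % methylation in wt versus 2.44 to 22.0 % in βerko MEFs. Together with a position in the untranslated region 43 bp past the gene start, at 100 % of 70 reads in wt versus 11.9 % of 59 reads in βerko MEFs, they formed a run of 5 positions over 118 bp. Of the 14 positions farther into Dkk3, 12 were within 20 points.

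Sfrp5 was called in its body with 10 positions, 39.6 % ± 38.3 in wt versus 17.2 % ± 30.9 in βerko MEFs. Frzb had 55.2 and 40.7 % over 19 body positions, and Dkk1 had 38.8 and 28.9 % over 9 body positions, both below the call. Sfrp1 had 13.2 and 1.94 % upstream and 29.3 and 28.0 % in its body. The upstream values came mainly from positions 1253 and 1266 bp upstream, with 87.5 and 100 % in wt versus 0 and 20 % in βerko MEFs. At 1253 bp these rest on 8 reads in wt and 5 in βerko MEFs. The other upstream positions of Sfrp1 had 0 to 4.29 % in both libraries. Wif1 was the exception among the antagonists with 74.9 % in wt versus 82.7 % in βerko MEFs over 26 body positions, the largest gain of the 40 scored bodies and still below the call. The 10 antagonists were also the group with the fewest covered positions, since only Sfrp1 and Sfrp2 could be scored upstream.

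The intracellular genes also differed little in their means. Axin2, a scaffold of β-catenin degradation, had 13.6 and 14.2 % upstream and 33.4 and 32.1 % over 178 body positions. Lef1 had 2.17 and 3.43 % upstream and 49.5 and 51.4 % over 145 body positions, and Tcf7 had 28.0 and 27.9 % upstream and 45.4 and 42.6 % in its body. Axin1 had 9.31 and 9.81 % over 50 body positions. In Tcf7, 4 positions were lower and 2 higher by at least 50 points without a run. All 50 upstream and 53 of 56 body positions of Tcf7 lie within other gene models. Its values therefore cannot be assigned to Tcf7 alone.

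DMPs were covered by more than 4 reads on each side, with below 20 % methylation in either library and above 80 % in its counterpart. The Wnt genes held 62 hypomethylated DMPs in 17 genes and 6 hypermethylated DMPs in 4 genes. The hypomethylated DMPs were 1.88 % of their covered positions, beside 0.7 % of all covered positions, and the hypermethylated ones 0.182 %, beside 0.237 %. Of the 68 DMPs, 30 were in coding exons, 20 in introns, 14 upstream and 4 in untranslated regions. DMPs of a gene lie close together and partly on the same reads, and the 68 DMPs formed 40 groups on the same strand with gaps of at most 100 bp.

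The hypomethylated DMPs were unevenly spread. Fzd9 had 14, Fzd8 had 11, Wnt3 had 9, Wnt5a had 6 and Wnt4 had 5. Wnt2 and Dkk3 had 3 each, Sfrp2 had 2, and Wnt1, Wnt2b, Wnt3a, Wnt10b, Fzd1, Fzd10, Sfrp1, Dkk2 and Axin2 had 1 each. The 6 hypermethylated DMPs were found in Wnt3a (3), Wnt4, Wnt9b and Wif1. Receptors and ligands thus held most DMPs, and Fzd9 and Fzd8 together held more than any other pair of genes. However, ligands and Frizzled receptors, with 18 and 10 genes, were also most of the genes described. Whether either group held more DMPs than its share of covered positions was not tested.

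Reads per DMP were tested with Fisher's exact test, two-sided and with Benjamini-Hochberg adjustment over all covered positions. This passed for 58 hypomethylated and 5 hypermethylated DMPs. The test compares 2 libraries, and since a DMP is chosen for its difference it adds only how far counting error could account for it. Median depth was 22.5 reads in wt versus 41.5 reads in βerko MEFs at hypomethylated and 26 and 29.5 reads at hypermethylated DMPs. The exact 95 % intervals of the 2 libraries did not overlap at 67 of the 68 DMPs. The exception was Sfrp1, with 7 of 8 reads in wt versus 0 of 5 in βerko MEFs at 1253 bp upstream (Fisher's exact test, adjusted p = 0.496).

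The lowest p-value belonged to the Wnt10b position described above (Fisher's exact test, p = 1.00e-32, adjusted p = 3.59e-29). Next came the Fzd8 position 1800 bp from the gene start with 79 of 85 reads in wt versus 1 of 58 in βerko MEFs (Fisher's exact test, adjusted p = 3.04e-28), the Dkk3 position 43 bp past the gene start (adjusted p = 1.66e-25) and the Wnt4 position 5966 bp from the gene start (adjusted p = 1.96e-25). For Wnt3, 42 of 43 reads were methylated in wt versus 3 of 70 in βerko MEFs in an intron 36441 bp from the gene start (exact test, adjusted p = 4.45e-23). The hypermethylated DMP with the most reads, in the untranslated region of Wif1, had 13 of 77 reads in wt (16.9 %, 9.31 to 27.1 %) versus 57 of 69 in βerko MEFs (82.6 %, 71.6 to 90.7 %; exact test, adjusted p = 1.92e-13). The Wnt9b DMP in an intron had 3 of 40 and 27 of 33 reads (exact test, adjusted p = 9.70e-09).

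Fewer reads stood behind other DMPs. Dkk2 had 10 of 12 reads in wt versus 0 of 16 in βerko MEFs at 842 bp upstream (83.3 %, 51.6 to 97.9 %, against 0 to 20.6 %; Fisher's exact test, adjusted p = 6.92e-04). Wnt2b had 13 of 16 and 0 of 22 reads at 837 bp upstream (exact test, adjusted p = 1.67e-05), and Wnt1 had 17 of 21 and 1 of 12 reads in an intron (adjusted p = 0.0149). Fzd10 had 19 of 21 and 5 of 31 reads (exact test, adjusted p = 1.48e-05). Fisher's exact test did not pass for Fzd1 (6 of 7 and 6 of 35 reads, adjusted p = 0.119), Axin2 (7 of 7 and 1 of 8 reads, adjusted p = 0.155), 1 of the 14 DMPs of Fzd9 (adjusted p = 0.0887) and the middle DMP of the Wnt3a stretch (adjusted p = 0.071).

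**Figure D3:**
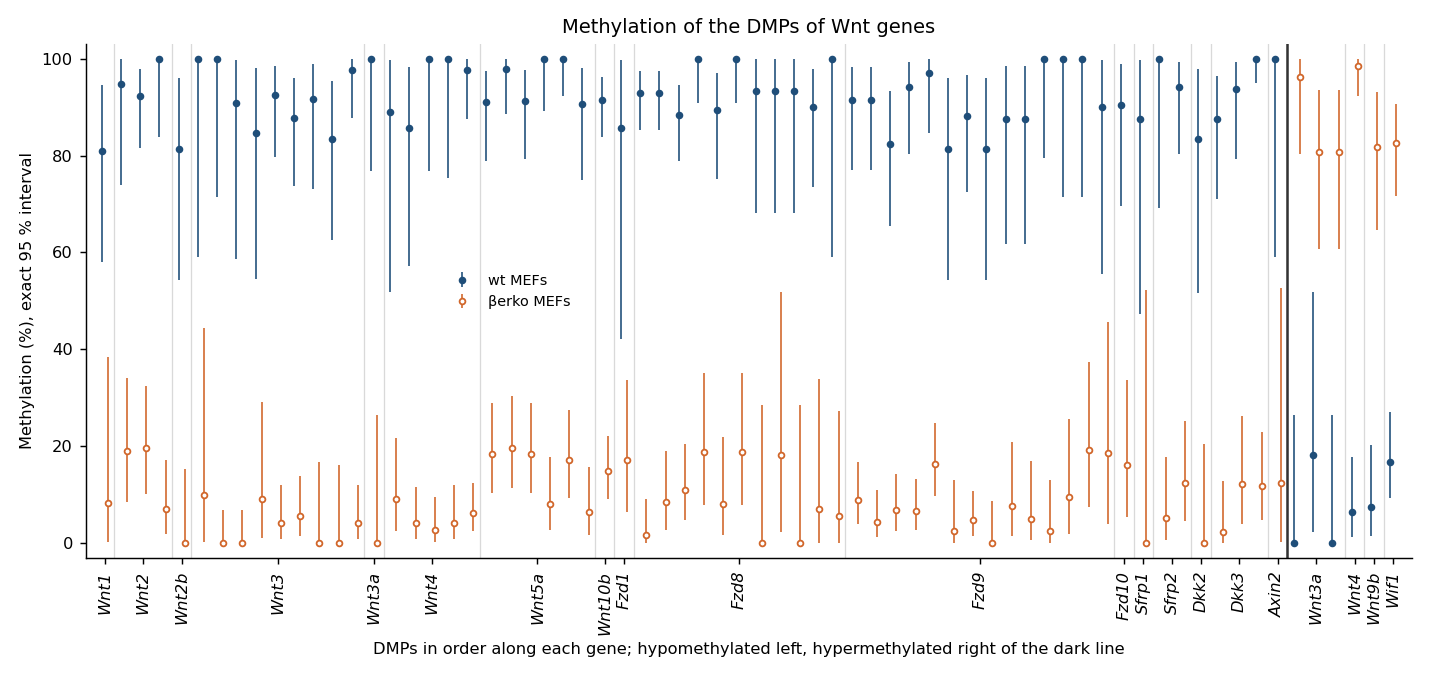
Methylation (vertical axis, %) of the 68 DMPs of the Wnt genes in the wt library (filled points) and the βerko library (open points) with exact 95 % intervals from the reads, grouped by gene along the horizontal axis; the 62 hypomethylated DMPs stand left of the dark line and the 6 hypermethylated ones right of it. The intervals of the libraries overlap only at Sfrp1, and they are widest where fewest reads were counted.

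In all, 20 runs of lower methylation with 121 positions were found in 11 genes, and 2 runs of higher methylation with 6 positions in 1 gene. Runs were not counted in other genes, so these numbers cannot show whether runs were more frequent in the Wnt genes than elsewhere. Fzd8 and Fzd9 alone held 46 of the 121 positions. The genes with runs of lower methylation were Wnt2, Wnt2b, Wnt3, Wnt4, Wnt5a, Fzd1, Fzd8, Fzd9, Fzd10, Sfrp2 and Dkk3. Outside the runs, Fzd10 was still lower by close to 20 points, and the difference of the other genes ranged from -1.54 points at Wnt4 to -18.6 points at Sfrp2. At Fzd8, 63 of 68 positions outside the run were within 20 points.

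By distance from the gene start, lower positions were most frequent far upstream. Between 2000 and 1000 bp upstream, 13 of 51 positions of the Wnt genes (25.5 %) were lower by at least 50 points, beside 4.36 % for all protein-coding genes, and between 1000 and 500 bp upstream 16 of 101 (15.8 %), beside 3.05 %. The Wnt genes were also more methylated there in wt MEFs, with means of 63.8 % and 42.3 % beside 36.4 % and 17.7 % for all genes, and a position below 50 % in wt cannot be lower by 50 points. In the 500 bp on either side of the start the shares were 4.97 % and 3.85 %, beside 1.43 % and 1.56 %. From 500 to 1000 bp downstream 9.45 % of positions were lower, beside 2.57 %. Beyond 5000 bp, the share of the Wnt genes was 1.56 %, below the 3.31 % of all genes. There, 26 of the 34 higher positions were found, 2.90 % of the positions beside 2.03 % for all genes.

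**Figure D4:**
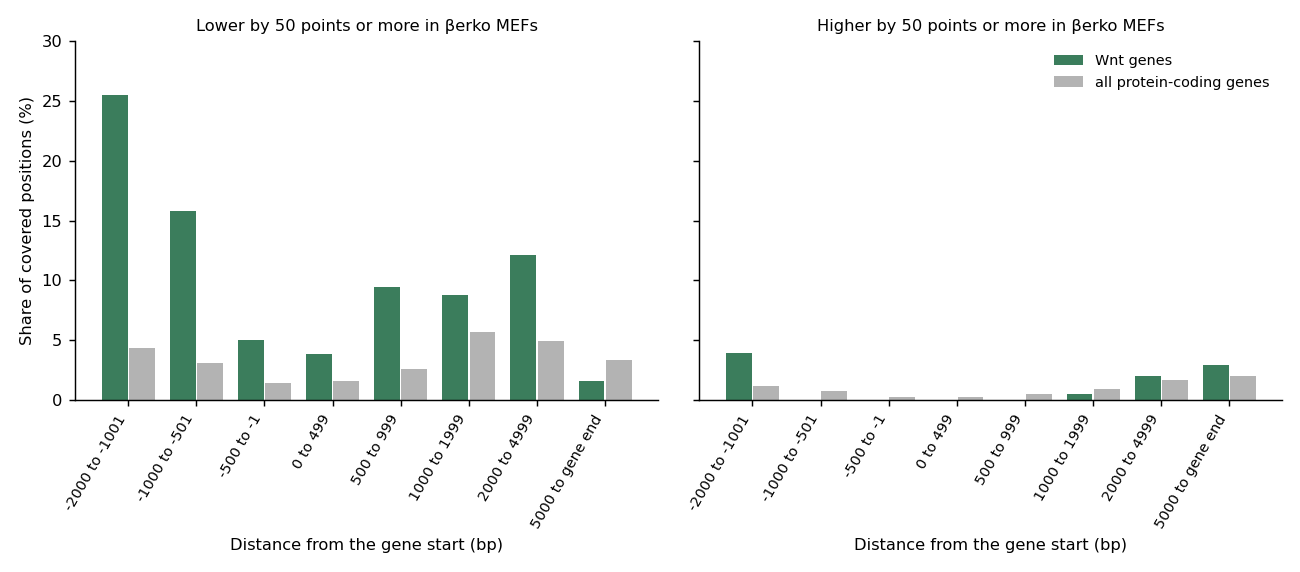
Share of covered positions (vertical axis, %) that were lower (left) or higher (right) by at least 50 points in βerko MEFs, by distance from the gene start (horizontal axis, bp), for the Wnt genes (green bars) and all protein-coding genes (grey bars). The share of lower positions in the Wnt genes reaches 25.5 % far upstream and falls below that of all genes beyond 5000 bp.

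Where a CpG was covered on both strands, the strands serve as a check within each library. For 349 such CpGs of the Wnt genes, the median difference between strands was 2.89 points in wt versus 2.08 points in βerko MEFs, and 90 % of CpGs were within 22.2 and 19.8 points. Of 27 CpGs that were lower by at least 50 points on at least 1 strand, 15 were so on both. Differences of 50 points were thus larger than the disagreement between most strand pairs, although the strands come from the same DNA. Pairs unmethylated on both strands, such as those upstream of Lrp6, count as agreement, and pairs with intermediate methylation were not taken apart.

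A further 53 genes of the pathway, were scored in the same way, and 52 of them had a gene model under their name. They comprise R-spondins and their Lgr receptors, the ligases Znrf3 and Rnf43, Dishevelled and Gsk3 proteins, β-catenin and its cofactors, and planar polarity genes. Further antagonists such as Sost, Sostdc1, Notum and Kremen2 are also among them. None of the 29 scored upstream windows and none of the 50 scored bodies was called in either direction. The values nearest to the call were at Nkd1, an inhibitor of Dishevelled, with 20.2 % in wt versus 1.69 % in βerko MEFs over 6 upstream positions, and at Rnf43, with 66.8 and 84.2 % over 24 body positions. Of the further antagonists, the bodies of Sost, Notum and Kremen2 differed by -3.03, -7.60 and -15.8 points. Sostdc1, with 53.7 % in wt versus 3.97 % in βerko MEFs, had 3 body positions, too few to score. The calls by means at the pathway therefore stood at ligands, Frizzled receptors and antagonists of the Sfrp family. However, only 7 of the 29 upstream windows had 20 % methylation or more in wt MEFs and could have been called lower. The difference between the lists was not tested.

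Some of the 44 genes could not be judged. Wnt16, Sfrp4 and Dkk4 had no covered position at all. Upstream, Wnt7a, Wnt8b, Wnt10a, Fzd9 and Dkk1 had none either, and Wnt5a, Wnt6, Fzd1, Fzd2, Sfrp5, Frzb, Dkk2, Dkk3, Wif1 and Axin1 had 1 to 4. In the body, Dkk2 had 1. Of the remaining bodies, those of Wnt7a and Wnt8b had means of 55.2 and 53.7 % and of 28.9 and 28.9 %, and those of Wnt7b, Wnt5b and Wnt11 differed by -3.79, -1.55 and -5.63 points.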

How the data were processed

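RRBS was made from wt and βerko MEFs, 1 library each. Per the paper's methods, the authors mapped reads with the Genomatix Mining Station, whose version is not given in the sources used here, and the submitters' processing notes name CASAVA 1.4 and mm9. The authors deposited percent methylation for cytosines that both libraries covered, without their depth, and read counts per library for DMPs only. The deposited DMP tables also hold an annotation made with RegionMiner. All 826937 positions were CpG cytosines of NCBIM37.

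Gene models were GENCODE on NCBIM37. Methylated reads at a DMP were its read count times its percent methylation. Untested positions were given a p-value of 1 in the Benjamini-Hochberg adjustment, which was read at 0.05. The planned test needed coverage, which was used only at DMPs, whose depth ranged in the Wnt genes from 7 to 94 reads in wt and 5 to 128 in βerko MEFs at hypomethylated positions. PCR copies could not be recognised, since no molecular identifiers were used, and intervals (Clopper-Pearson) and tests therefore cover counting error only. The 44 genes and all lists were chosen with earlier results of these data known. Named with values were, for each window, the 5 largest losses and gains, and every gene with a DMP or a run; others are named to account for every gene. Sequences were those of runs with the most positions and DMPs with the most reads, except that upstream runs were added after their values were seen, and Fzd8 and untranslated regions were left out. Fisher's test, calls and runs were tested on simulated data. Alternatives for windows, thresholds, strands and runs are given below. Python 3.11.15, NumPy 2.4.6, pandas 2.3.3, SciPy 1.17.1 and matplotlib 3.10.9 were used.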

Additional observations from a re-analysis of the deposited data

How the results depend on the processing

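With 1 library for each genotype, neither replicates nor library totals could be varied, and coverage limits only the DMPs, since the depth of other positions is unknown. No paired analysis was possible because each group has 1 library. The 5 upstream windows called lower became 3 with at least 10 positions, 9 with a call at 10 points and 3 with a call at 30 points, beside 4.04, 11.1 and 2.12 % of all genes. The 5 bodies called lower became 9 at 10 points and 0 at 30 points, beside 9.32 and 1.21 %. With medians in place of means, 2 bodies were called higher, Fzd6 and Wnt7a, where the mean called 0, beside 2.12 % of all genes, and 7 were called lower, beside 7.47 %, with Dkk1, Frzb, Tcf7 and Wnt4 added and Fzd8 and Sfrp2 lost. With thresholds of 10 and 90 %, 23 hypomethylated and 2 hypermethylated DMPs remained. The 20 runs of lower methylation became 42 at 30 points, 7 with at least 5 positions and 13 when a covered position that differed less ended a run, an alternative chosen after the data had been seen. The 2 runs of higher methylation became 7 at 30 points, 0 with at least 5 positions, 1 with strands merged and 1 when ended by such a position. The other 39 counts under alternatives were within 1.5 times of those reported. Bonferroni adjustment left 43 hypomethylated and 4 hypermethylated DMPs.

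Among the named means, Sfrp2 upstream moved to -25.9 points when 500 bp past the gene start were added, the Fzd9 body to -65.2 points and the Fzd6 body to 27.4 points with medians. With medians Fzd7 upstream was called lower at -22.2 points, which made 6 upstream calls. The Wnt9a body differed by -9.1 points, and both were opposite in sign to their means. The lost bodies of Fzd8 and Sfrp2 had -7.41 and -12.0 points. All values with medians are differences between the medians of the libraries. The median of the differences at single positions was 0 points for Fzd7 upstream and for the bodies of Wnt9a, Fzd6, Tcf7 and Wnt4. It was -11.8 points for the Fzd9 body and -1.01 points for the Wnt7a body. Wnt10b upstream fell below the call, at -15.9 points, with 500 bp past the gene start. Without positions in other genes, Fzd10 upstream kept 3 positions and could not be scored, and neither could Sfrp2 within 1 kb upstream, with 3 positions, nor the Sfrp5 body from 500 bp on, with 0. Sfrp2 and Wnt10b upstream, with 6 and 7 positions, were the calls lost at 10 positions. The cause of these shifts was not tested.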
